A study of Homo sapiens with 2 samples.

Results

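The genes described here encode the proteins of the cytosolic ribosome, and the measurement is the binding of Flag-tagged ETV4 at their ends by ChIP-seq. Members were the protein-coding RefSeq genes whose symbol is RPL or RPS followed by digits and optional letters, together with RPLP0, RPLP1, RPLP2 and RPSA, which gave 82 genes of 20037 protein-coding genes. Of these, 50 encode proteins of the large subunit or paralogs of them, and 32 encode proteins of the small subunit. The study had 1 immunoprecipitate made with a Flag antibody and 1 input, and both came from A549, an established human lung adenocarcinoma line. The cells of both carried a shRNA against ETV4 and had been transfected with a plasmid for Flag-ETV4. The study's methods describe the shRNA as lentiviral, and the input had no antibody. The Flag antibody is named as a CST product in the methods and as a Sigma product in the labels. Because there was no second library of either kind, no value below has a replicate error, and no condition was compared with another. The peak list alone cannot show whether the cells have the markers of their line.

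Each ribosome of the cytosol contains a single copy of almost every ribosomal protein, so the genes are transcribed strongly and in proportion in dividing cells. Their promoters are compact, and transcription usually starts at a C within a stretch of pyrimidines. That stretch becomes the 5′ terminal oligopyrimidine (TOP) sequence through which mTOR signalling controls the translation of these mRNAs. ETV4 belongs to the PEA3 group of ETS factors, which bind DNA around a GGAA core. Sites of that kind are a known feature of several mammalian ribosomal protein promoters, where the ETS factor GABP has been described.

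The sequences that carry the comparison are the promoters, from 120 bases before the annotated start to 15 bases after it, on the strand of the gene. They are from RefSeq on GRCh38.p14. Capitals mark CCGGAA or its reverse complement TTCCGG, a common form of the ETS core, and the last 15 letters of each begin at the start site. The 5 members shown first had the highest fold enrichment among those whose nearest summit fell inside the window. RPS14 is shown because, with RPS18, it had the most matches to the core in its promoter, overlapping matches included. The 4 members shown last had no peak. The single core of RPL28 and that of RPS9 lie farther upstream than the letters shown.
RPS7, chr2:3575140-3575274, plus strand: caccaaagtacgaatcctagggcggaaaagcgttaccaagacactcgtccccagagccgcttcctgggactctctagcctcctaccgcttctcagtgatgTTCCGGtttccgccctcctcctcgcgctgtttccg
RPL28, chr19:55385812-55385946, plus strand: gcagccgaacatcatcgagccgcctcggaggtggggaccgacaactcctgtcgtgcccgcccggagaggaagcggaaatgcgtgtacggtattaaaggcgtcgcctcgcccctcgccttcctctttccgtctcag
RPSA, chr3:39406600-39406734, plus strand: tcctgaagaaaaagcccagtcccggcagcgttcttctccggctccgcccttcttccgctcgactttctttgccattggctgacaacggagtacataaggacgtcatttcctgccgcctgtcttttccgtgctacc
RPS18, chr6:33271955-33272089, plus strand: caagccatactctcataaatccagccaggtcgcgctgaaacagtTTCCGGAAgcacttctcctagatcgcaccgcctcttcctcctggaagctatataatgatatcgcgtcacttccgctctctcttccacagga
RPL34, chr4:108620456-108620590, plus strand: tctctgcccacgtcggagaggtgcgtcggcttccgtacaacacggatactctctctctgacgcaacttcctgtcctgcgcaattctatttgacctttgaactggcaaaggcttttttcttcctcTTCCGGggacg
RPS14, chr5:150449725-150449859, minus strand: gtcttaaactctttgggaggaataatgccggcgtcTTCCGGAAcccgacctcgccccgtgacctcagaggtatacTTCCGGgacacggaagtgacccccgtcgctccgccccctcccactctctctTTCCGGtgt
RPL10L, chr14:46651767-46651901, minus strand: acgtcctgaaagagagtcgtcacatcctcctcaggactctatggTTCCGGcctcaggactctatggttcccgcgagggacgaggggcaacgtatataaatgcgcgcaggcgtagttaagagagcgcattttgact
RPLP0, chr12:120201097-120201231, minus strand: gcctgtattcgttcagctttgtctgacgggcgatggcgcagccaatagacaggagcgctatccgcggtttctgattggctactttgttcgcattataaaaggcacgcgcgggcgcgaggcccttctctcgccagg
RPS24, chr10:78033743-78033877, plus strand: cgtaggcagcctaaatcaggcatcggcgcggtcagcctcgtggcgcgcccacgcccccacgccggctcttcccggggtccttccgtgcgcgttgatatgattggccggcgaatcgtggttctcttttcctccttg
RPS9, chr19:54200738-54200872, plus strand: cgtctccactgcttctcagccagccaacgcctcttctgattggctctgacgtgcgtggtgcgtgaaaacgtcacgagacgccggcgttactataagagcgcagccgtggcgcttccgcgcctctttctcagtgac

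Flag-ETV4 peaks lay at the ends of almost all cytosolic ribosomal protein genes, and their enrichment there was moderate for peaks at gene ends. A peak within 1 kb of either end of the gene was found for 78 of the 82 members (95.1%, Wilson 95% confidence interval 88.1% to 98.1%), against 62.1% of all protein-coding genes. The shares were 48 of 50 for the large subunit and 30 of 32 for the small subunit. More than 1 peak was found for 15 members (18.3%), against 9.52% of protein-coding genes. The deposited list gives each peak a fold enrichment, the fragment pileup at its summit over the level expected from the input. A pseudocount of 1, assumed here, is added to both numbers before the ratio is taken. When each gene was given its peak of highest fold, the members' median was 14.1 (n = 78, quartiles 8.15 and 26.2), and the median of all protein-coding genes with a peak was 17.6 (n = 12444, quartiles 9.33 and 30.6). Of the 78 members with a peak, 47 were below that second median. The medians of 14.1 and 17.6 were both above 9.63, the median fold of all 54389 peaks in the list. The medians of the large and small subunits were 14.7 and 14.1.

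The members' lead over the background narrowed as a higher fold was required. A fold over 5 was reached by 70 members (85.4%), against 57.5% of all protein-coding genes. A fold over 10 was reached by 53 members (64.6%, interval 53.8% to 74.1%), against 45.2%. A fold over 20 was reached by 27 members (32.9%, interval 23.7% to 43.7%), against 27.6%, a share inside the members' interval. No test over the list was made. The members' strongest peaks had a median width of 951 bp, against 1063 bp for all protein-coding genes with a peak, and a median −log10 q of 40.8 against 53.6.

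**Figure D1:**
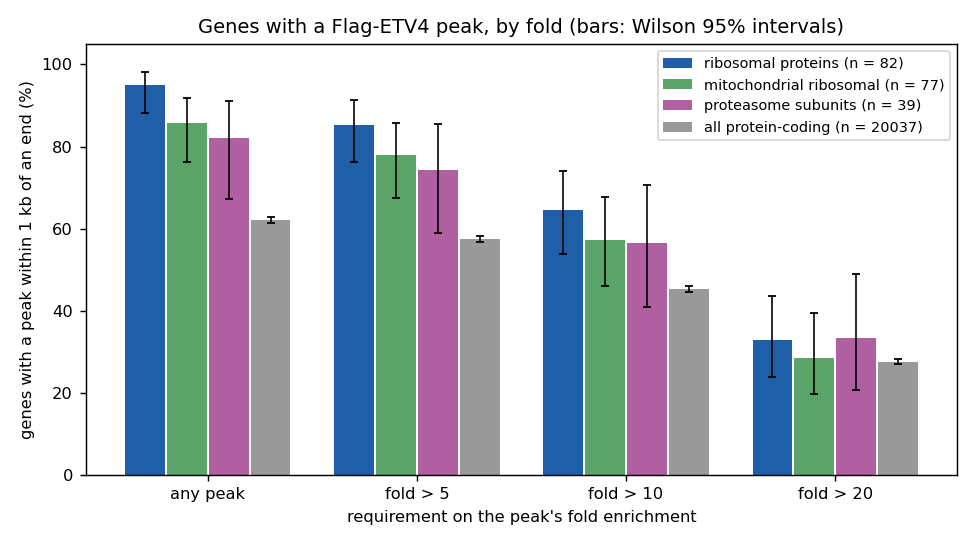
Percent of genes with a Flag-ETV4 peak within 1 kb of either end (y axis) when any peak counts or a fold over 5, 10 or 20 is required (x axis), for the cytosolic ribosomal protein genes, mitochondrial ribosomal protein genes, proteasome subunit genes and all protein-coding genes, with Wilson 95% confidence intervals as error bars. The ribosomal protein genes fall from 95.1% with any peak to 32.9% at a fold over 20, where all protein-coding genes are at 27.6%.

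Other gene families expressed in nearly all cells gave shares whose intervals overlapped that of the members. Among 77 mitochondrial ribosomal protein genes, 66 had a peak (85.7%, 76.2% to 91.8%), and their median highest fold was 14.4. Among 39 proteasome subunit genes, 32 had one (82.1%, 67.3% to 91.0%), and the median was 17.4. Whether the families differ was not tested.

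The strongest peak of any member was at RPS19, which encodes a small subunit protein and was the earliest gene linked to Diamond-Blackfan anaemia. The interval of this peak runs from 41859477 to 41861249 on chromosome 19. A fold of 92.4 placed it above 98.8% of the 54389 peaks in the list. With 617 fragments at the summit (569 to 668, the 95% exact Poisson interval, as for all pileups below) and a control level of 5.69, it ranked 63 in the whole list by −log10 q, which was 989. The interval of its pileup lay above that of every other member's strongest peak. The summit lay 429 bp before the 5′ end, and the nearest end of another protein-coding gene, DMRTC2, was 7493 bp away.

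After RPS19 came 3 members with nearly the same fold. RPL27A, a large subunit protein, had a peak of 65.6 with 164 fragments (140 to 191), RPS7, a small subunit protein that also binds MDM2, one of 65.4 with 162 fragments (138 to 189), and RPL28, a large subunit protein, one of 65.3 with 148 fragments (125 to 174). These intervals overlap, so the order among the 3 is within counting error. The control levels of RPL27A, RPS7 and RPL28 were 1.52, 1.49 and 1.28, against 5.69 at RPS19. The pseudocount therefore lowers their folds more than that of RPS19. At RPS7 and RPL28 the summit was 44 bp and 63 bp upstream of the 5′ end. At RPL27A it was at the other end of the gene, 875 bp inside the 3′ end.

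The rest of the 10 highest were RPS18 with a fold of 48.7, RPL6 with 46.6, RPL38 with 45.4, RPS4X with 40.6, RPL26 with 37.7 and RPL7 with 36.2. RPS4X is the X-linked copy of a small subunit protein that also has Y-linked copies, and RPL38 and RPL26 are large subunit proteins known for effects on the translation of particular mRNAs, Hox mRNAs for the former and p53 mRNA for the latter. The summits at RPL38, RPS4X and RPL26 were 426 bp, 128 bp and 54 bp inside the 5′ end. The peaks at RPS18, RPL6 and RPL7 had their summits nearer to an end of another protein-coding gene than to their own, as described below.

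Between the extremes, the folds formed a continuous series. RPSA, the laminin receptor precursor that is also a small subunit protein, had 35.2, RPS28 34.8, RPL8 32.9, RPL15 32.4 and RPL37 28.5. In the middle were RPL30 with 17.2, RPL29 with 15.9 and RPS23 with 15.7, and RPL13A, a protein known for a role outside the ribosome in the interferon response, had 9.64. RPS3, which is also known as a DNA repair protein, had 11.5. The pileups of the neighbours RPS28 (113 fragments, 93.1 to 136) and RPSA (109 fragments, 89.5 to 131) overlap, as do those of RPL29 (39 fragments, 27.7 to 53.3) and RPS23 (57 fragments, 43.2 to 73.9).

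At the low end were RPL37A with a highest fold of 3.47, RPL31 with 4.18, RPS3A with 4.46, RPL19 with 4.63, RPL9 with 4.71, RPS12 with 4.76, RPS27L with 5.01 and RPL5 with 5.35. RPL37A had 13 fragments at its summit (6.92 to 22.2) against a control level of 3.04 and a −log10 q of 3.36. RPL5, which joins RPL11 and the 5S rRNA in a particle that binds MDM2, had 17 fragments (9.90 to 27.2). Its partner RPL11 had a fold of 16.5 with 38 fragments (26.9 to 52.2), and these 2 pileup intervals barely overlap. The peaks from RPL37A to RPL5 in that order rest on 11 to 18 fragments each, so differences in fold among them cannot be read at this depth.

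**Figure D2:**
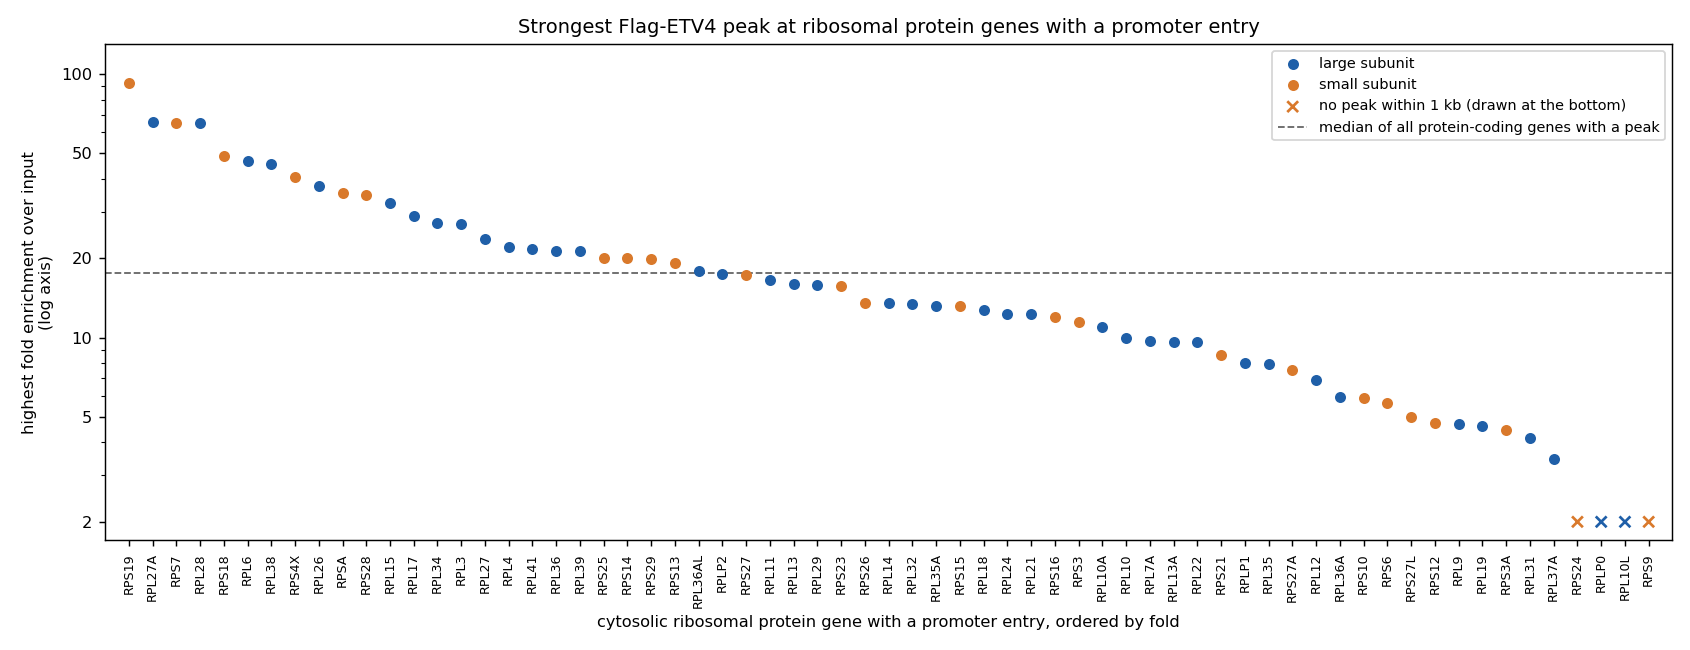
Highest fold enrichment over input of a peak within 1 kb of either end (y axis, log scale) for the 65 cytosolic ribosomal protein genes with an entry in the RefSeq promoter table, ordered by fold, with large and small subunit genes in different colours and the 4 genes without a peak as crosses at the bottom. The genes run from 92.4 at RPS19 to 3.47 at RPL37A, and 36 of the 61 with a peak lie below the dashed line, the median of 17.6 over all protein-coding genes with a peak.

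No peak within 1 kb of either end was found for RPLP0, RPS9, RPS24 and RPL10L. RPLP0 encodes the protein that anchors the acidic stalk of the large subunit, and its nearest peak was 5772 bp from the 5′ end. The stalk partners of RPLP0 did have peaks at the 5′ end, with a fold of 17.4 at RPLP2 and 8.004 at RPLP1. RPS9 and RPS24 encode small subunit proteins, and their nearest peaks were 11177 bp and 4094 bp from the 5′ end. The nearest peak to RPS24 had a fold of 24.4. RPL10L, an intronless paralog of RPL10 known from male germ cells, had its nearest peak at 43045 bp. All these distances are from the 5′ end alone. With a window of 2 kb at either end, 79 of the 82 members had a peak (96.3%), against 65.7% of all protein-coding genes. The gain over 78 members therefore lies at the 3′ end of one of these genes, which was not identified. A missing peak means that no interval reached the authors' threshold in this library, which is not the same as an absence of binding, since peaks of 11 fragments are in the list.

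The paralogs varied. RPL36AL, a copy of RPL36A, had a fold of 17.8, RPL39L 7.34, RPL3L 6.37 and RPS27L 5.01. RPL3L is known from heart and skeletal muscle, and the summit of its only peak was 700 bp outside the gene and 75 bp from the 5′ end of MSRB1, a methionine sulfoxide reductase gene. Outside the symbol rule, RPL22L1 had a fold of 36.3 and RPL7L1 17.0, while RPL26L1, RPS4Y1 and RPS4Y2 had no peak. RPS4Y1 and RPS4Y2 are on chromosome Y, where the list held 0 peaks. Of the ribosomal proteins that are made under other names, FAU had no peak, and RACK1, the scaffold protein of the small subunit, had one of 3.76. RPS27A, whose product is made as a fusion with ubiquitin, had a peak of 7.52.

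The direction of transcription was taken from the RefSeq promoter table, which matched 65 of the 82 members. For the other 17, only the distance to the nearer end was used. With the same window, a 5′ peak was present in 61 of the 65 (93.8%, 85.2% to 97.6%), against 61.3% of 15842 protein-coding genes with an entry. A 3′ peak was present in 12 (18.5%, 10.9% to 29.6%), against 9.56%. These members are short genes, and a window at the 3′ end of RPL36, RPL41 or RPS27 is partly reached by the peak at the 5′ end.

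The summits sat close to the start of the gene. For the 61 members, the summit nearest to the 5′ end had a median distance from it of 162 bp, against 229 bp for 9716 protein-coding genes. It lay within 250 bp in 43 members (70.5%, 58.1% to 80.4%), against 52.9% of all such genes. With sign, the median was 54 bp into the gene for the members and 92 bp for all genes, and 36 of the 61 summits lay inside the gene (59.0%), against 62.8%. The summit at RPL34 was on the annotated first base, and those at RPS3A and RPL35 were 8 bp upstream of it. The summit at RPS14, a small subunit gene lost in the 5q- syndrome, was 12 bp upstream, with a fold of 19.998.

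**Figure D3:**
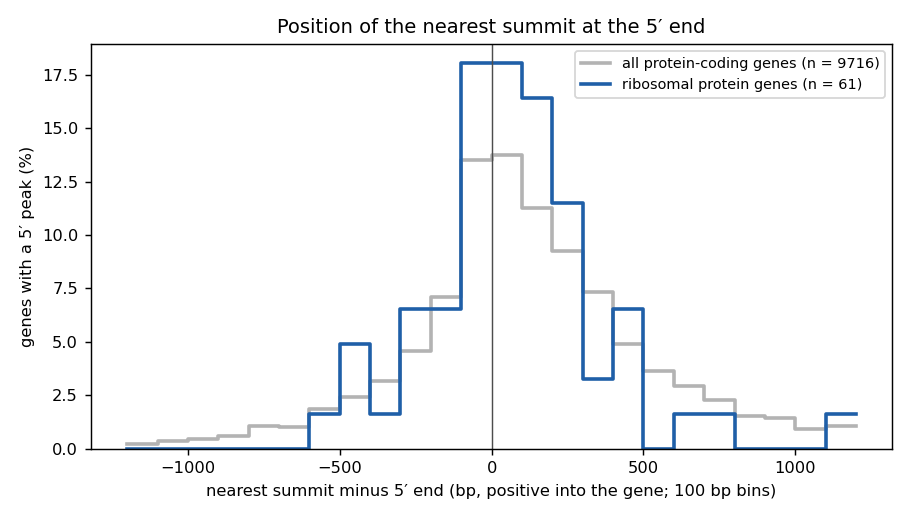
Distribution of the distance from the 5′ end of the gene to the nearest summit (x axis, bp, positive into the gene, in bins of 100 bp) as a percent of genes with a peak at the 5′ end (y axis), for 61 ribosomal protein genes and 9716 protein-coding genes. Summits of other genes that lie beyond the axis are not drawn, and both distributions peak around the start, with 70.5% of the members and 52.9% of all genes within 250 bp.

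Some summits were farther away. At RPL15, the summit was 618 bp inside the outermost 5′ end, and that gene has further annotated starts in between. At RPL10, likewise with several starts, it was 744 bp inside, and at RPL3 1144 bp inside. At RPL36AL it was 512 bp upstream, 339 bp from the 5′ end of MGAT2. The summit at RPL23, for which no direction was used, was 629 bp from the nearer end. RPS12 had 2 weak peaks around its start, one 297 bp upstream with a fold of 3.11 and one 564 bp inside with 4.76. RPS10 also had 2, with folds of 5.90 at 68 bp and 4.71 at 973 bp into the gene. RPS6, the ribosomal target of S6 kinase, had its summit 218 bp inside, with a fold of 5.65.

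**Figure D4:**
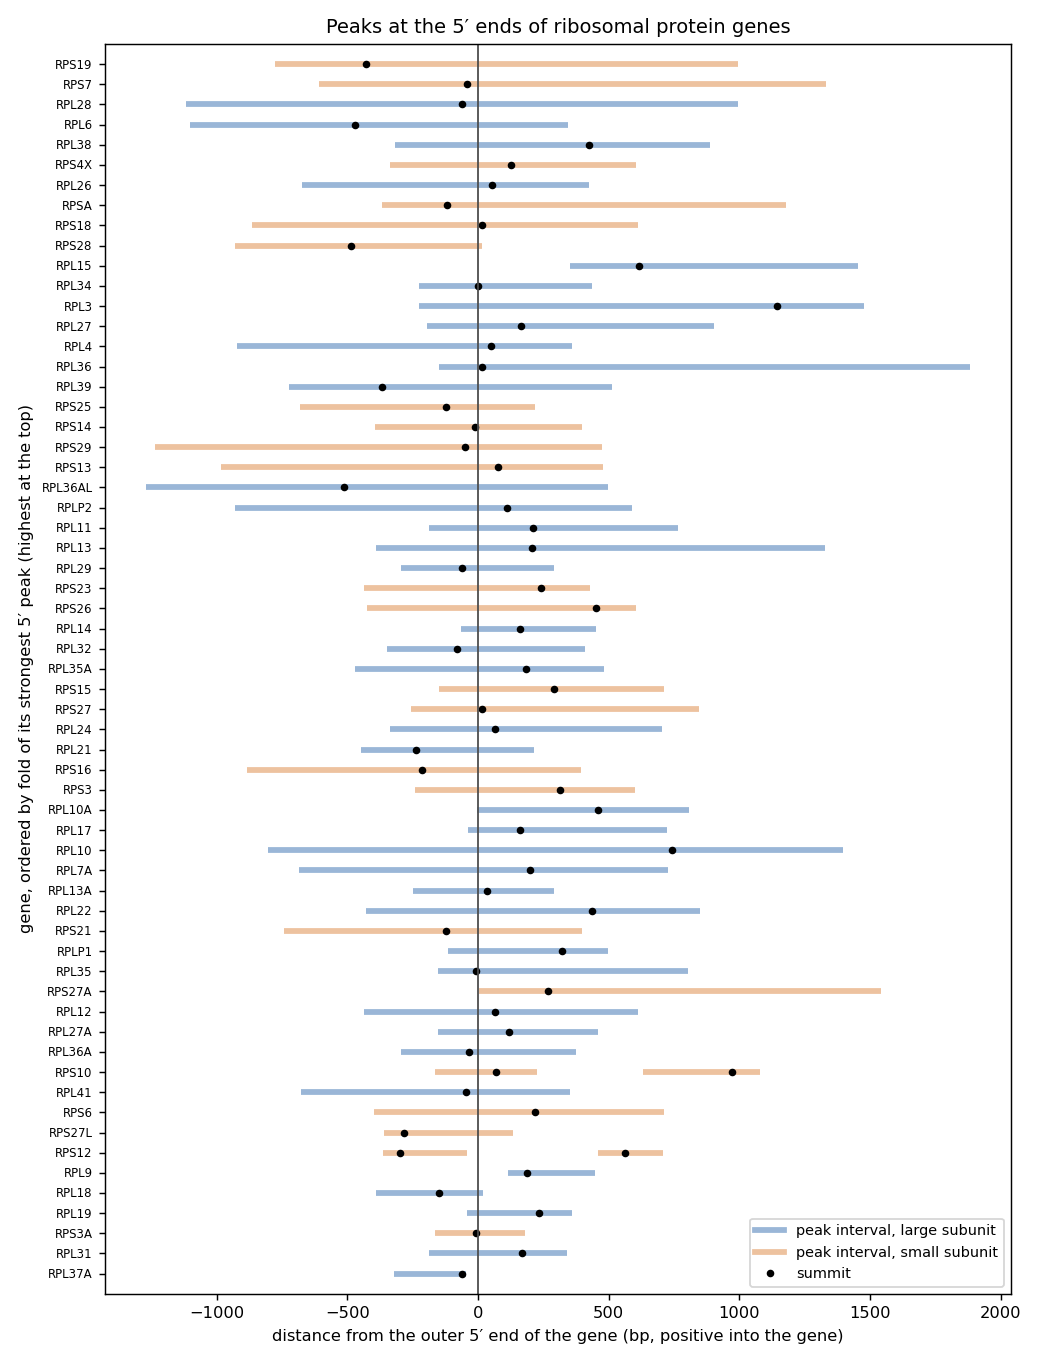
Peak intervals (bars) and summits (dots) relative to the outer 5′ end (x axis, bp, positive into the gene) for the 61 ribosomal protein genes with a peak within 1 kb of that end, ordered by the fold of the strongest such peak from top to bottom. Summits gather around 0, with 43 of the 61 nearest summits within 250 bp, and the bars get shorter toward the weak peaks at the bottom.

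Several peaks counted for a ribosomal protein gene were nearer to a neighbour. Of the 78 strongest peaks, 10 had a summit nearer to an end of another protein-coding gene, and the same share over all protein-coding genes was not computed. At RPL6, a large subunit gene on the minus strand, the summit was 472 bp upstream of the outermost 5′ end and 360 bp from an end of PTPN11, the gene of the phosphatase SHP2. The starts of RPL6 in the promoter table lie farther inside the gene, and relative to the nearest of these the summit was at −7865 bp. At RPL7 the summit was 387 bp from an end of the retinol dehydrogenase gene RDH10. At RPS28 it was 488 bp upstream and 367 bp from the 5′ end of the complex I gene NDUFA7. The strongest of 4 peaks at RPL23A, with a fold of 26.7, had its summit 2934 bp from the gene, and its interval only reached into the window, whereas the peak at the end itself had a fold of 14.5. RPS2 also had 2 peaks, with folds of 12.7 and 4.30, of which the weaker was 101 bp from the 3′ end of NDUFB10.

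Peaks at the 3′ side were often next to a neighbouring gene. There were 11 peaks within 1 kb of the 3′ end alone, and 6 of them had a summit within 100 bp of an end of another protein-coding gene. The same share over all protein-coding genes was not computed, so this is not shown to be particular to the members. The peak of 48.7 at RPS18 had its summit 1 bp from an end of B3GALT4, a glycosyltransferase gene, while the peak at the RPS18 start had a fold of 35.0. The peak of 29.0 at RPL17 was 72 bp from the 5′ end of C18orf32, against 10.01 at the RPL17 start. That of 21.7 at RPL41 was 46 bp from the 5′ end of ZC3H10, against 5.81 at the RPL41 start, and that of 12.7 at RPL18 was 84 bp from the 5′ end of FAM83E, against 4.67 at the RPL18 start. The second peaks of RPL26, 19.4, and RPL4, 17.6, were 4 bp and 36 bp from the 5′ ends of KRABD2 and SNAPC5, and were weaker than those at the starts, 37.7 and 22.1.

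In 2 members the stronger peak was at the 3′ side and its summit was nearer to the member's own end than to any other coding gene end. RPL27A had a fold of 65.6 inside its 3′ end and only 6.70 at its start, with 24 fragments (15.4 to 35.7), and the nearest end of another coding gene to the former was 4355 bp away. The pileup intervals of these 2 peaks do not overlap. RPS27 had a fold of 17.2 at a summit 2 bp inside its 3′ end and 12.9 at its start, with 57 (43.2 to 73.9) and 51 (38.0 to 67.1) fragments, which overlap. The remaining 3′ peaks were weaker than the 5′ ones, with 8.60 at RPL13, 8.56 at RPL35A and 7.68 at RPL38. No peak was within 1 kb of 2 members, so the 95 peaks counted here are 95 distinct intervals.

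Head-to-head arrangements, in which a coding gene on the other strand starts at most 1 kb upstream, were found for 13 of the 65 members (20%, 12.1% to 31.3%), against 10.1% of protein-coding genes with an entry. All 13 had a peak at the shared start, near the 5′ share of 93.8% over all 65 members. That share over all head-to-head protein-coding genes was not computed. The 5′ folds of the 13 ran from 4.67 at RPL18, which starts 328 bp from the sphingosine kinase gene SPHK2, to 35.0 at RPS18, which starts 110 bp from VPS52. RPL9, 134 bp from the lipoic acid synthetase gene LIAS, had 4.71. The median 5′ fold was 17.4 (quartiles 6.89 and 20.1), against 13.1 (quartiles 8.45 and 22.0) for the 48 other members with a 5′ peak. RPL12 and LRSAM1 start 80 bp apart and RPS27 and RAB13 54 bp apart, so a summit there cannot be assigned to either gene.

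The promoters of these genes held the ETS core more often than promoters in general. CCGGAA, searched on both strands from 250 bases before to 50 bases after the start, was present in 35 of 65 promoters (53.8%, 41.9% to 65.4%), against 22.7% of the 15842 protein-coding promoters. The longer form CCGGAAGT, which contains the former, was present in 10 (15.4%, 8.58% to 26.1%), against 6.15%. GGAA alone, contained in both, was present in 98.5% and 95.2% and does not separate the groups in this window. From 100 bases before to 50 bases after the start, it was present in 95.4% of the members (87.3% to 98.4%), against 78.4%. Where CCGGAA overlaps its own reverse complement, as in the TTCCGGAA of the RPS18 and RPS14 sequences above, both matches were counted. RPS18 and RPS14 each had 4 matches. RPL29 had 3, none of them overlapping, so the lead of RPS18 and RPS14 rests on counting both overlapping matches.

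In 10 of the 65 promoters (15.4%, 8.58% to 26.1%) a core began within the 20 bases that follow the start, against 3.58% of all protein-coding promoters. The sequence of RPL34 above shows this arrangement, with a pyrimidine run that leads into TTCCGG, and the end of the RPS14 sequence shows it too. A start at C followed by at least 4 pyrimidines, the form of a TOP sequence, was annotated for 42 of 65 members (64.6%, 52.5% to 75.1%), against 4.59% of all protein-coding genes. The median GC content of the 300 letters was 59.3% for the members and 62.7% for all.

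**Figure D5:**
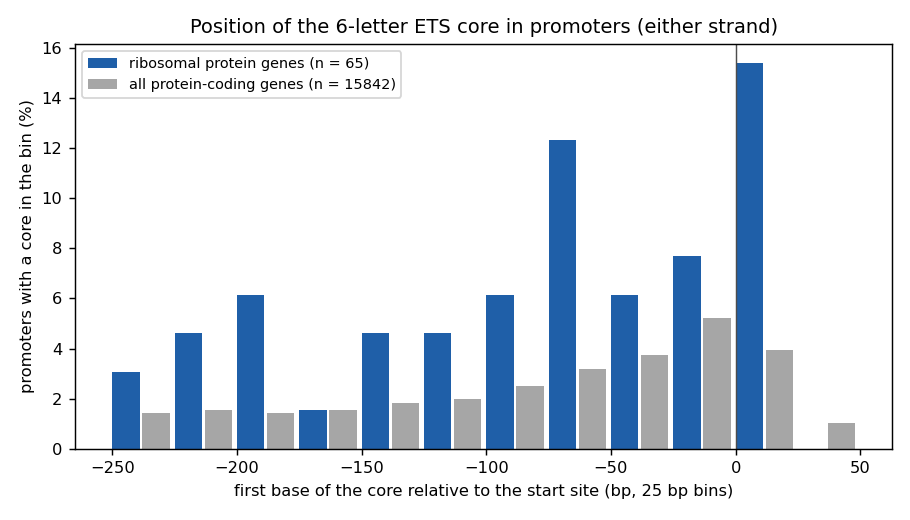
Percent of promoters in which a 6-letter ETS core on either strand begins in each bin of 25 bp (y axis) against its position relative to the annotated start (x axis, bp), for 65 ribosomal protein genes and 15842 protein-coding genes. The members' highest bin is the one just after the start, at 15.4%, against 3.93% for all genes.

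Across all protein-coding promoters, those with CCGGAA had a 5′ peak in 82.6% of cases (2974 of 3602) and those without it in 55.1% (6742 of 12240). Among the members, 33 of 35 with the core and 28 of 30 without it had a peak, so nearly all had one in either case. The members' median fold at the 5′ end was 12.3 with the core and 14.6 without it, with overlapping quartiles (6.70 to 20.1 and 9.69 to 21.5). Over all protein-coding promoters with a 5′ peak, the order was the other way, with medians of 19.5 with the core and 16.7 without it. RPS19, the strongest, had no core in the window, and neither had RPSA, with a fold of 35.2, or RPLP0 and RPS24, which had no peak. The RPS19 summit, at −429 bp, lay outside that window, so the sequence under it was not searched for a core. RPS9 and RPL10L had a core and no peak. In 24 members the summit itself lay within the promoter window, and 15 of these held a core, at a median distance of 48.5 bp from the summit (quartiles 18.0 and 88.5), with 12 of 15 within 100 bp. Summit and core had to lie in the same 300 letters and the nearest core was taken, so short distances follow in part from this choice. The same values over all protein-coding promoters were not computed. The summit has the resolution of the sonicated fragments, and matches of 6 letters are a description of the sequence, not sites.

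Genes that act with the ribosomal proteins were taken from lists. Of 13 genes for translation factors and related proteins with TOP mRNAs, 13 had a peak at an end, with a median highest fold of 18.0. TPT1, translationally controlled tumour protein, was highest with 97.7, and PABPC1, the poly(A) binding protein, had 41.9. The elongation factor genes EEF1A1 and EEF2 had 23.5 and 13.9, and NPM1, nucleophosmin, was lowest with 9.04. Of 24 genes for rRNA synthesis and ribosome assembly, 21 had a peak, with a median of 10.6. UBTF, the RNA polymerase I factor, had 58.7, RRS1 38.6 and EIF6, which keeps free large subunits from joining, 38.3, while LTV1 had 4.30 and NMD3 3.76. BYSL, POLR1A and RRN3 had no peak. The background for these counts is the same 62.1%.

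Processed pseudogenes of ribosomal protein genes are abundant in the human genome and resemble the mRNAs closely. Of 1966 pseudogenes named after a member, 94 had a peak in the same window (4.78%, 3.92% to 5.82%), against 5.81% of 17051 pseudogenes of all kinds. How the authors' alignment treated reads that match both a gene and its copies is not given in the sources used here, and its part in the values inside exons was not tested.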

How the data were processed

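ChIP-seq was carried out on 1 anti-Flag immunoprecipitate and 1 input of A549 cells with an ETV4 shRNA and a Flag-ETV4 plasmid. The authors deposited 1 narrowPeak list called on the single immunoprecipitate, which gives a fold enrichment (a ratio to the control level), −log10 p and −log10 q at the summit, a display score and a summit offset. The submitters' processing notes name Bowtie2 2.4.1, SAMtools, MACS2 2.2.7.1 and deepTools 3.5.0 and the builds hg38 and GRCh38, without parameters. The deposited score and the input's own signal were not used here. The library's read total and the handling of duplicate reads are not given in the sources used here.

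Positions are 1-based. Gene ends came from RefSeq genes of GRCh38.p14 on chromosomes 1 to 22, X and Y, and strands, starts and sequences from the RefSeq promoter table, in which the entry nearest to the outer 5′ end was used. A gene had a peak where the interval lay within 1 kb of either end. Summit pileups were solved as whole numbers from fold and −log10 p, assuming a Poisson model and a pseudocount of 1. The solver and the window search were tested on simulated data. Shares have Wilson and pileups exact Poisson 95% intervals, which cover counting error only. No test between conditions or gene lists was made.

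The members and lists were chosen with earlier results of these data known. Named with values were the 10 highest and 10 lowest members, those without a peak, with several peaks, with a distant summit or with a peak at the 3′ end, paralogs and members of known roles. Some members that this rule names are not reported here. The starts after pyrimidines, the head-to-head pairs, the pseudogenes, the snoRNA hosts and the cores after the start were examined after the peaks had been seen. Alternatives covered the window, thresholds, summits, gene lists, starts and motifs. Calculations ran in Python 3.11.15 with pandas 2.3.3, numpy 2.4.6 and scipy 1.17.1, and plots were drawn with matplotlib 3.10.9.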

Additional observations from a re-analysis of the deposited data

How the results depend on the processing

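The share of ribosomal protein genes with a peak, 95.1%, fell to 85.4% when the peak had to touch the gene end itself, to 85.4% at a fold over 5, to 64.6% at a fold over 10 and to 79.3% at a −log10 q over 10. The share of all protein-coding genes under these settings was 49.9%, 57.5%, 45.2% and 53.6%. Windows of 500 bp, 2 kb and 3 kb, the summit in place of the interval, the 5′ end alone, a −log10 q over 5, the wider list and the list without paralogs gave 89.0% to 96.3%. The median highest fold, 14.1, was 13.3 for the peak nearest to the start and stayed between 13.6 and 15.7 under the other windows and lists. Counted as summit pileup it was 44.5 fragments, which is another unit. The median summit distance, 162 bp, was 162 bp for the peak of highest fold and 149 bp from the nearest annotated start. For all protein-coding genes it was 229 bp, 241 bp and 182 bp, so the distance between the medians narrowed with the nearest start. The share of promoters with the ETS core, 53.8%, was 15.4% for CCGGAAGT, 98.5% for GGAA and 41.5% when only the bases from 100 before the start were searched, against 6.15%, 95.2% and 16.1% of all protein-coding promoters.

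With a single immunoprecipitate and input, no value has a biological error. A peak of 11 fragments, as at RPL19, has an interval of 5.49 to 19.7, so the order among weak members cannot be read at this depth. Whether depth plays a part in the lack of a peak at the last 4 was not tested. No paired analysis was possible because each group has 1 library.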

Other observations

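Many ribosomal protein genes carry snoRNA genes in their introns, which guide the modification of rRNA. RefSeq places 60 snoRNA genes inside 29 of the 82 members, among them RPL3, RPL4, RPL7A, RPL13A and RPL23A with 4 each. A peak within 1 kb of an end was found for 29 of these 29 hosts (Wilson 95% confidence interval from 88.3%) and for 49 of the 53 other members (92.5%, 82.1% to 97.0%), so the intervals overlap. The share was 95.1% over all members and 62.1% over all protein-coding genes. The median highest fold was 13.4 for the hosts and 14.7 for the 49 other members with a peak, with overlapping quartiles (9.64 to 25.8 and 8.004 to 26.3). The highest host was RPL27A with 65.6.

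Of 20 members linked to Diamond-Blackfan anaemia, in which the loss of 1 copy of a ribosomal protein gene impairs red cell formation, 19 had a peak (95%), close to the share over all members (95.1%), against 62.1% of protein-coding genes. Their median highest fold was 17.2. RPS19, RPS7 and RPL26 were highest with 92.4, 65.4 and 37.7, and RPL31 was lowest with 4.18. RPS24 was the member of that list without a peak. Over all 78 members with a peak the median was 14.1, and whether the list differs from the other members was not tested.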
